A study of Mus musculus with 2 samples.

Results

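The miRNAs described here reach Dicer without the usual first cut by Drosha, or were looked for because their RNA can also be read as a snoRNA. They were taken by name from the deposited miRNA table as Mir320, Mir484, Mir877, Mir1224, Mir702, Mir1981 and Mir1839. Of these 7 names 6 had a row among the 1638 rows of the table, and 1, Mir1839, had none, nor did any row overlap its position, so that it is not analysed further. The 6 comprise 2 miRNAs described as having capped precursors (Mir320 and Mir484) and 4 mirtrons (Mir877, Mir1224, Mir702 and Mir1981). Of the 6, 5 had reads in each library, and Mir1224 had none in either.

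Small RNA was sequenced in 1 library of mESCs and 1 library of male prospermatogonia at E15.5, counted in days of embryonic development. The mESCs were the wild-type E14 line. The study's methods describe a naive, feeder-free culture of this line with LIF and inhibitors of MEK and GSK3, but do not say whether the small RNA library came from it. The prospermatogonia, germ cells of the fetal testis that the sample labels call primordial germ cells, were wild-type by label, on a C57Bl/6J background, and isolated from embryos of mice carrying an Oct-4/GFP reporter transgene. With 1 library per cell type there is no replicate check and no test, and cell type, strain, culture against embryo and library preparation cannot be told apart.

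In the common route to a miRNA, Drosha and its partner DGCR8 cut a hairpin out of a long primary transcript in the nucleus, an exportin carries it to the cytoplasm, Dicer removes the loop, and an Argonaute protein keeps 1 of the arms. A mirtron is a short intron that the spliceosome cuts out and that, once its lariat is opened, folds into a hairpin ready for Dicer. A capped precursor is a short RNA whose own transcription start is the 5′ end of the hairpin, so that it carries a methylguanosine cap and needs no Drosha cut. Mir320 is the standard example of the latter, and both Mir320 and Mir484 are known to be made in mouse embryonic stem cells that lack DGCR8.

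The hairpins of the 4 mirtrons are printed to show how they sit on their introns, with the first 2 and last 2 bases of the host intron in capitals where these lie inside the hairpin (RefSeq, GRCm38.p6, 5′ to 3′). The positions are GRCm38 and the introns are those of GENCODE vM21. Mir877 is on chromosome 17 from 35960730 to 35960814 (minus strand), Mir1224 on chromosome 16 from 20604452 to 20604536 (plus strand), Mir1981 on chromosome 1 from 184822407 to 184822488 (minus strand), and Mir702 on chromosome 5 from 136991433 to 136991541 (plus strand).
Mir877: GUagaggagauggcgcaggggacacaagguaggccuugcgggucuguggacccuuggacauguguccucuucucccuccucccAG
Mir1224: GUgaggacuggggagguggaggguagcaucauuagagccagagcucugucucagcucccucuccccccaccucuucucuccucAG
Mir1981: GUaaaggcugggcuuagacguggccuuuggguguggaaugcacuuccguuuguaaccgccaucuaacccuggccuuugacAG
Mir702: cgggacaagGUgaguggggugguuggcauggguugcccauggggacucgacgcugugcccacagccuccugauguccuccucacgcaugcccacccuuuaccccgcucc
The Mir877 hairpin is exactly an 85-nt intron of Abcf1, which codes for an ATP-binding cassette protein that acts in translation initiation. Mir1224 is exactly an 85-nt intron of Vwa5b2, and Mir1981 exactly an 82-nt intron of Marc2, which codes for a mitochondrial reductase. Mir702 differs from them, since its 109-nt hairpin begins 9 nt upstream of the 102-nt intron, inside an exon of the collagen lysyl hydroxylase gene Plod3, and stops 2 nt short of the intron's 3′ end, so that the closing AG is not in the sequence. An overlap of this kind, with both hairpin ends within 10 nt of the ends of 1 intron, was found for 9 of the 1638 rows (0.549%), and all 4 mirtrons were among these 9. Within 5 nt there were 6 such rows, 3 of them members, and Mir702 was not among them. A hairpin that begins with GU and ends with AG on its own strand was found in 6 of the 494 rows with a RefSeq hairpin (1.21%), and 3 of these were Mir877, Mir1224 and Mir1981.

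The hairpin of Mir484 is printed from RefSeq because it has no intron end to mark. It lies on chromosome 16 from 14159626 to 14159692, on the plus strand.
Mir484: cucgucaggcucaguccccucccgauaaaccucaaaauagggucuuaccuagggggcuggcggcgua
Mir484 was antisense to an exon of Marf1, a regulator of the oocyte meiotic programme, whose start was 359 nt away on the other strand. It had no annotated transcript start within 10 nt on its own strand: the nearest, that of Nde1, was 3649 nt away, so the annotation holds no start at the 5′ end of the hairpin. Such a start was found for 9 of the 1638 rows and for no member, Mir320 included. The name capped therefore rests on earlier descriptions and not on this annotation. In GC content Mir484 (58.2%) and the mirtrons (53.7% in Mir1981 to 65.1% in Mir702) all stood above the median of 50.5% over the rows with a RefSeq hairpin.

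Mature sequences are given for Mir484 and the 4 mirtrons, with the seed (bases 2 to 8, which pair with targets) in capitals.
miR-484: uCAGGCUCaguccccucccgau
miR-877-5p: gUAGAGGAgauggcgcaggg
miR-877-3p: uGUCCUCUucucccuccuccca
miR-1224-5p: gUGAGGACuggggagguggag
miR-1224-3p: cCCCACCUcuucucuccucag
miR-702-5p: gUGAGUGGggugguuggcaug
miR-702-3p: uGCCCACCcuuuaccccgcucc
miR-1981-5p: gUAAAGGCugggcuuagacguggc
miR-1981-3p: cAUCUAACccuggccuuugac
The 5p form of all 4 mirtrons starts at the first base of the intron. Their 3p forms end at the last base of the intron (miR-1224-3p), 1 nt before it (miR-877-3p) or 2 nt before it (miR-702-3p and miR-1981-3p). The 5p arms were rich in G, from 41.7% in miR-1981-5p to 61.9% in miR-1224-5p, and held at most 16.7% C. In the 3p arms C made up 38.1% in miR-1981-3p to 59.1% in miR-702-3p, and G at most 14.3%. No 2 of these mature forms shared a seed, and among all mature entries only miR-3102-5p, also from a mirtron, shared one (UGAGUGG, with miR-702-5p). No other miRNA gene of the 2232 compared shared a stretch of 18 nt with a member, so that no near-identical copy of a member is known to divide its reads. The values count reads per hairpin, and which arm they came from was not analysed here.

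Values of the table were taken as log2 RPM, reads scaled to a library of 1000000. Since they step by whole reads, reads could be recovered, with rows at the column minimum set to 0. With library totals inferred from that unit, the mESC library held 110455 miRNA reads of 449643 (24.6%), and the prospermatogonia library 155237 of 2869578 (5.41%). A single read was therefore worth 2.22 RPM in mESCs and 0.348 RPM in prospermatogonia. The paper describes the small RNAs of mESCs as mostly miRNAs, and its denominator may differ from the total inferred here. Of the rows, 285 and 317 were above the minimum, and the median of these rows was 12 reads in both libraries, or 26.7 RPM and 4.18 RPM. Levels in RPM refer to the whole library and shares to the miRNA reads, and because the miRNA share of the library was 4.54 times as large in mESCs, the same reads can be lower in prospermatogonia in RPM and equal or higher as a share. Intervals are 95% and cover counting error only, and PCR reads without molecular identifiers are not independent molecules.

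The libraries were checked against lists of marker miRNAs. The 6 rows listed for mESCs held 24.2% of miRNA reads in mESCs and 3.25% in prospermatogonia, and 5 rows listed for male germ cells held 0.00996% and 9.77%. Another 9 rows, listed for blood, endothelium, mesenchyme and the gonadal soma, summed to 1.89% of miRNA reads in mESCs and 0.312% in prospermatogonia, above the 0.233% of all members there. In prospermatogonia 4 of these 9 had more than 3 reads: Mir143 (260), Mir142 (124), Mir202 (57) and Mir126 (40). Mir144, Mir145 and Mir199a-1 were at 0 there, but Mir144 and Mir199a-1 had no read in mESCs either. Mir143 and Mir142 thus differed from Mir145 and Mir144 of their own lists. The row listed for the gonadal soma, Mir202, went the other way from the sum, with 0 reads in mESCs and 57 (0.0367% of miRNA reads) in prospermatogonia, the library in which the mirtron share was also higher. The part of these rows' cell types in the levels below was not tested, and in bulk RNA fewer cells of a type and less RNA per cell cannot be told apart.

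Mir484 was the most abundant member in both libraries. It had 108 reads in mESCs, 240 RPM (exact Poisson interval 197 to 290), and 144 reads in prospermatogonia, 50.2 RPM (42.3 to 59.1). In RPM it was 4.79-fold higher in mESCs (3.73 to 6.14), whereas its share of miRNA reads, 0.0978% and 0.0928%, differed by less than counting error (prospermatogonia to mESC 0.949, interval 0.740 to 1.22). It stood 9-fold above the median row in mESCs and 12-fold above it in prospermatogonia, or 2.204-fold and 3.56-fold where the median was taken over rows of more than 3 reads.

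Mir320, the other capped hairpin, came next, with 77 reads in mESCs, 171 RPM (135 to 214), and 126 in prospermatogonia, 43.9 RPM (36.6 to 52.3). It was 3.90-fold higher in mESCs in RPM (2.94 to 5.17), and its shares of 0.0697% and 0.0812% again differed by less than counting error (1.16, interval 0.878 to 1.54). Levels were 6.42-fold and 10.5-fold above the median row, or 1.57-fold and 3.11-fold above that of rows with more than 3 reads. In each library the RPM intervals of Mir320 and Mir484 overlapped. Of the reads on both rows, Mir484 took 58.4% in mESCs (Wilson interval 51.2% to 65.2%) and 53.3% in prospermatogonia (47.4% to 59.2%). These intervals overlap as well. The interval of mESCs lay above an equal split between the rows, and that of prospermatogonia included it.

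Among the mirtrons Mir877, from Abcf1, had the most reads. It had 8 reads in mESCs, 17.8 RPM (7.68 to 35.1), and 60 in prospermatogonia, 20.9 RPM (15.96 to 26.9). Its RPM did not differ beyond counting error (prospermatogonia to mESC 1.18, interval 0.571 to 2.42), while its share of miRNA reads was 0.00724% in mESCs and 0.0387% in prospermatogonia, a ratio of 5.34 (2.59 to 11.0). Mir877 thus lay below the median row in mESCs (0.667 of it, with 43.2% of the rows above the minimum lower) and 5-fold above it in prospermatogonia (70.0% lower). Against rows of more than 3 reads it was at 0.163 and 1.48 times the median row, and against rows with a read in both libraries at 0.302 and 2.26 times, so its side of the median held in each library while the size did not.

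Mir1981, from Marc2, had 4 reads in mESCs, 8.90 RPM (2.42 to 22.8), and 17 in prospermatogonia, 5.92 RPM (3.45 to 9.49). Mir702, from Plod3, had 3 reads, 6.67 RPM (1.38 to 19.5), and 14 reads, 4.88 RPM (2.67 to 8.19). In RPM neither differed beyond counting error, with prospermatogonia to mESC ratios of 0.666 (0.235 to 1.89) and 0.731 (0.225 to 2.37). Their shares of miRNA reads were higher in prospermatogonia, 3.02 times (1.07 to 8.57) for Mir1981 and 3.32 times (1.02 to 10.8) for Mir702, with lower ends of the intervals close to 1. Both lay under the median row in mESCs, at -1.58 and -2 relative to it on the log2 scale, and slightly over it in prospermatogonia, at 0.50 and 0.22. This last direction turned with the rows used: in prospermatogonia Mir1981 and Mir702 had 0.420 and 0.346 times the reads of the median row of more than 3 reads, and 0.642 and 0.528 times those of the median row with a read in both libraries. Against rows with a miRNA name Mir1981 was at 1.13 and Mir702 at 0.933 times the median.

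Mir1224, from Vwa5b2, had no read in either library, although its hairpin has the same intron-to-hairpin layout as Mir877. A count of 0 was given a limit of 3 reads, and no fold is given. This limit is 6.67 RPM (0.00272% of miRNA reads) in mESCs and 1.05 RPM (0.00193%) in prospermatogonia. The exact Poisson intervals used for the other members reach higher for Mir1224, to 8.20 RPM and 1.29 RPM.

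**Figure D1:**
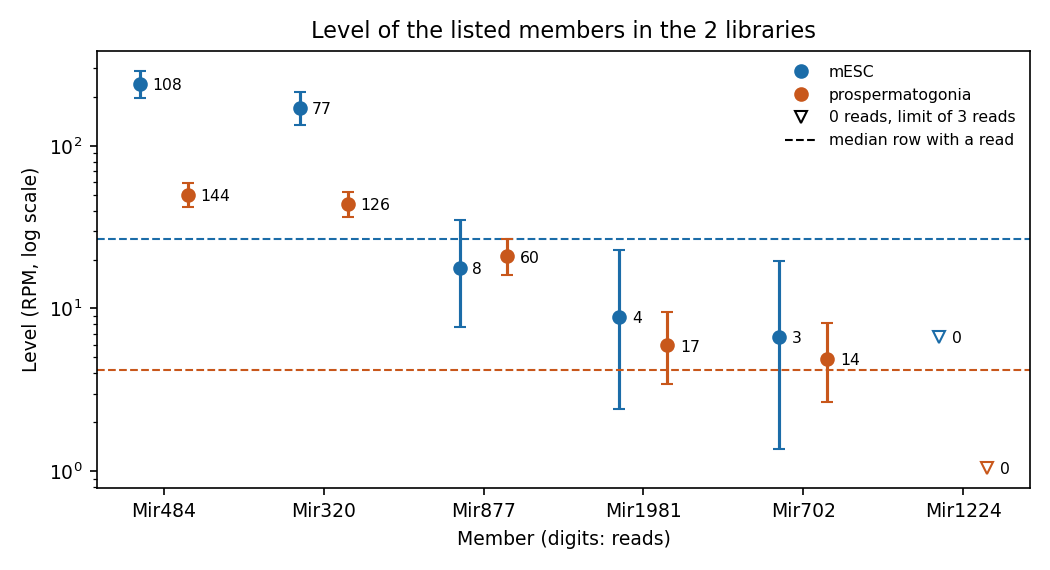
Level of each member in RPM (log axis) in the mESC and the prospermatogonia library, with 95% exact Poisson intervals and the median of all rows above the minimum in each library. Mir484 and Mir320 lie above the median row in both libraries. Mir877 (17.8 and 20.9 RPM) lies above it in prospermatogonia alone, as do Mir1981 and Mir702, by less. Mir1224 is shown at its limit of 3 reads.

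The order of the members was the same in both libraries, Mir484, Mir320, Mir877, Mir1981, Mir702 and Mir1224. In mESCs the intervals separated Mir320 from Mir877 and left Mir877, Mir1981 and Mir702 overlapping. In prospermatogonia they separated Mir320 from Mir877 and Mir877 from Mir1981, but not Mir1981 from Mir702. The count of members above the median row was 2 of 5 in mESCs (Mir320 and Mir484) and 5 of 5 in prospermatogonia. That second count depends on the rows that set the median: it was 3 of 5 against rows of more than 3 reads (median 40.5 reads) and 3 of 5 against the 248 rows with a read in both libraries (median 26.5 reads), the latter comparison chosen after seeing the data. Mir1981 and Mir702 were the members that dropped out of both, and against rows with a miRNA name the count was 4 of 5, without Mir702.

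Summed over the members, reads were 200 in mESCs and 361 in prospermatogonia, 0.181% (Wilson interval 0.158% to 0.208%) and 0.233% (0.210% to 0.258%) of miRNA reads, a ratio of 1.28 (1.08 to 1.53). The capped pair gave 185 and 270 reads, 0.167% and 0.174%, a ratio of 1.04 (0.862 to 1.25). The mirtrons gave 15 and 91 reads, 0.0136% and 0.0586%, a ratio of 4.32 (2.52 to 7.40), which is a comparison of these libraries and not of replicates. In RPM, the mirtrons were at 33.4 and 31.7. Mir877 contributes most of the mirtron reads, and without it the mirtrons gave 7 and 31 reads, a ratio of 3.15 (1.42 to 7.004).

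Within the members' own reads, which no scaling of the libraries moves, mirtrons took 7.5% (15 of 200, interval 4.60% to 12.0%) in mESCs and 25.2% (91 of 361, 21.0% to 29.9%) in prospermatogonia. Leaving out Mir877, Mir484 or Mir320, alternatives chosen after seeing the data, kept the mirtron share higher in prospermatogonia. It was 3.65% (1.78% to 7.33%) against 10.3% (7.35% to 14.2%) without Mir877, 16.3% against 41.9% without Mir484, and 12.2% against 38.7% without Mir320. Of the reads on Mir877 and Mir484, Mir877 took 6.90% (3.54% to 13.0%) in mESCs and 29.4% (23.6% to 36.0%) in prospermatogonia.

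**Figure D2:**
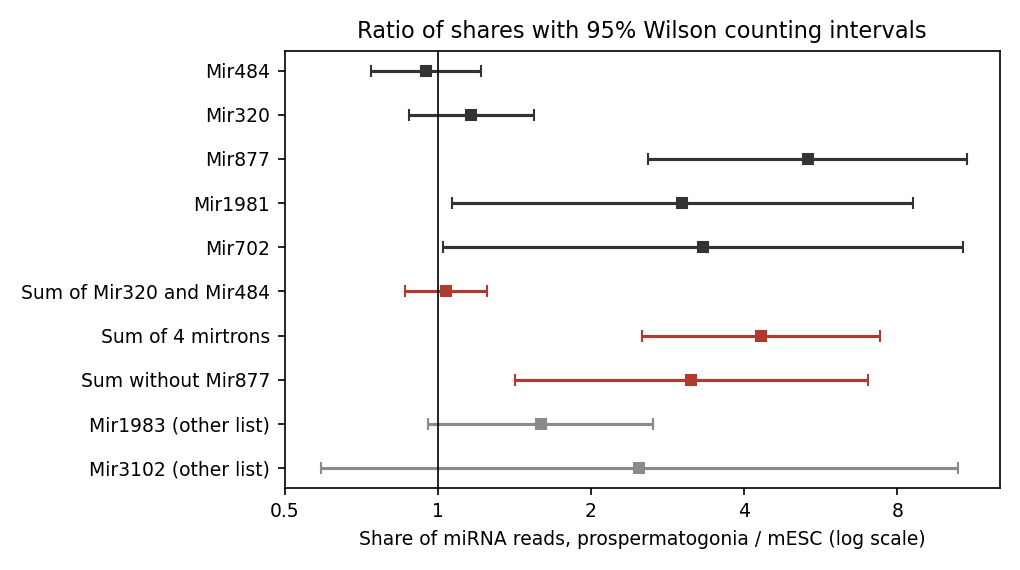
Ratio of the share of miRNA reads, prospermatogonia to mESC (log axis), for each member with reads and for sums, with 95% intervals of the read ratio that cover counting error only. Members are black, sums red and the other non-canonical miRNAs Mir1983 and Mir3102 grey. Mir320 (1.16) and Mir484 (0.949) span 1, whereas Mir877 (5.34) and the sum of the mirtrons (4.32) lie above it.

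Against all rows, 203 rows had 10 RPM or more in at least 1 library, and 3 members (Mir320, Mir484 and Mir877) were among them. With a pseudocount of 1 RPM, log2 ratios (positive where prospermatogonia are higher) were -1.94 for Mir320, -2.24 for Mir484 and 0.22 for Mir877, against a median of -2.52 over the 203 rows. At least 2-fold lower in prospermatogonia were 2 of 3 members, Mir320 and Mir484, beside 80.8% of the tested rows, and at least 2-fold higher were 0 of 3, beside 9.85%. These counts are near the background, and the members are too few for them to set the members apart. After scaling to the median ratio, a log2 shift of 2.37, the median of the rows was -0.28, and 0 of 3 members were 2-fold lower beside 36.5%, while 1 of 3, Mir877, was 2-fold higher beside 22.2%. Under that scaling Mir320 was at 0.41, Mir484 at 0.11 and Mir877 at 2.54, so the direction of Mir320 and Mir484 depends on the scaling. Of the tested rows 65.0% had a lower ratio than Mir320, 57.6% a lower ratio than Mir484 and 87.7% a lower ratio than Mir877. For Mir702 (-0.38) and Mir1981 (-0.52), both under 10 RPM in each library, the figures were 84.7% and 84.2%. These figures set rows that failed the filter against rows that passed it. The median over all 354 rows with a read in at least 1 library was higher, at -1.70, and a rank among those rows was not computed.

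**Figure D3:**
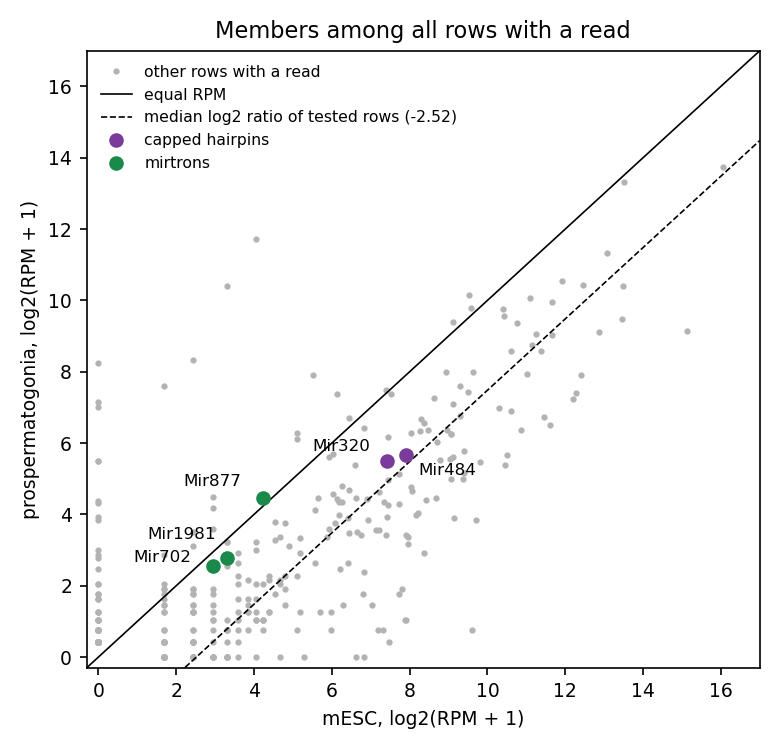
Level in prospermatogonia against level in mESCs, both as log2(RPM + 1), for all rows with a read, with the members marked. The solid line is equal RPM and the dashed line the median log2 ratio of the tested rows (-2.52). Mir320 and Mir484 lie near the dashed line, and the 3 detected mirtrons lie nearer to the solid line.

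The other rows at intron ends were 5: AC016814.1 (annotated as Mir1231, in Nav1), Mir3102 (Arhgef17), Mir1982 (Oaz1), Mir3062 (Pfas) and AC132367.1 (Pkd1). Mir3102 had 2 reads in mESCs and 7 in prospermatogonia, AC016814.1 and Mir3062 had 0 and 1 each, and the remaining rows had none. Together they gave 2 and 9 reads, a share ratio of 3.20 with an interval of 0.780 to 13.1, which does not exclude equal shares. All 9 rows at intron ends, the members among them, gave 17 and 100 reads (ratio 4.19, interval 2.52 to 6.96), of which Mir877 gave 8 and 60.

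**Figure D4:**
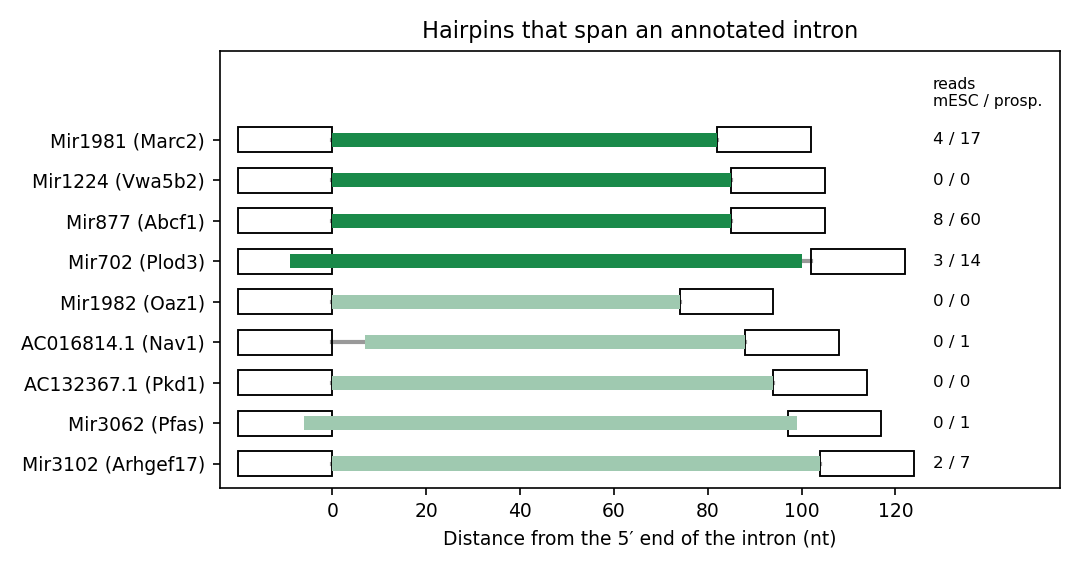
Hairpin of each of the 9 rows against its host intron, in nt from the intron's first base, with the reads of both libraries beside it (dark green members, light green other rows, open boxes the flanking exon ends). The hairpins of Mir877, Mir1224 and Mir1981 span their introns exactly, and that of Mir702 begins 9 nt upstream.

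Other miRNAs known to bypass Drosha or Dicer steps were sought as Mir451, Mir664, Mir1291, Mir1983 and Mir3102, of which 3 had a row under these names. Mir451, which an Argonaute protein rather than Dicer matures and which is abundant in red blood cells, had 0 reads in mESCs and 1 in prospermatogonia. Mir1983, which derives from a tRNA-like transcript, had 21 reads, 46.7 RPM, in mESCs and 47 reads, 16.4 RPM, in prospermatogonia. Its share ratio of 1.59 (0.957 to 2.65) includes 1 and its log2 ratio of -1.46 moved to 0.85 after scaling to the median ratio. Mir3102 is given above.

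Rows most like the 3 members with the most reads were found by the distance of log2(RPM + 1) over the 2 libraries, as a description only. Nearest to Mir484 were Mir31 (112 and 138 reads, distance 0.0797) and Mir205 (105 and 132, distance 0.129). Nearest to Mir320 were Mir205 (distance 0.450) and Mir410 (95 and 98 reads, distance 0.465). Mir877 had no row as close: Mir30c-1 (10 and 37 reads) was at 0.725 and Mir339 (12 and 36 reads) at 0.891.

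Whether the counting used strand is not given in the sources used here. Mir484 is antisense to an exon of Marf1, and the first 9 nt of Mir702 are exonic in Plod3. Mir877 and Mir1981 lie wholly in introns of Abcf1 and Marc2, on the same strand. Reads from these transcripts, unspliced ones and cut-out introns included, cannot be told apart from reads of the hairpins.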

How the data were processed

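The authors extracted total RNA with TriReagent, made small RNA libraries with a TruSeq kit, cut a size range of cDNA from a gel and sequenced single ends on a HiSeq instrument. Per the labels, reads were trimmed with Trim Galore (version 0.4.1) and mapped with Bowtie, run through piPipes by the study's methods. The methods name mm9, the submitters' processing notes GRCm38, and the row positions are those of GRCm38. The deposited values are log2 values per miRNA row, taken here as log2 RPM, the unit stated for the study's RNA-seq values. The methods name uniquely mapped reads for other outputs, such as read lengths, but the step from reads to the deposited values, the use of strand and the handling of reads with several matches in these values are not given in the sources used here.

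In linear form the values above each column's minimum were whole multiples of 1 read, with a largest deviation of 0.0136 and 0.0165 reads. The minimum itself corresponds to 0.9 reads and was set to 0. Reads, shares of miRNA reads and RPM were then computed per row. Library totals and RPM rest on the reading as log2 RPM, the reads and shares do not. Intervals are exact Poisson for RPM, Wilson for shares and for ratios of reads (95%). The log2 ratios used a pseudocount of 1 RPM and understate the change of low rows, whereas ratios of RPM and of shares used none. A row was compared with a 2-fold threshold if either library had 10 RPM or more. With 1 library per condition no p-value was computed. A limit for a count of 0 is 3 reads. The named rows are the 7 members, the other miRNAs sought, the 2 nearest rows of each of the 3 members with the most reads, and rows sharing 18 nt with a member. Outside this rule, the rows at intron ends and the marker rows Mir126, Mir142, Mir143, Mir144, Mir145, Mir199a-1 and Mir202 were named after their values were seen. The members and lists were chosen with earlier results of these data known. Sequences came from RefSeq (GRCm38.p6), where 6 of 7 members matched. The sequence and position of Mir320 are not reported here. The computation was tested on simulated reads. Alternatives were pseudocounts of 0.1 and 5 RPM, both scalings, filters on low rows, a 4-fold threshold, tolerances at intron ends, and those chosen after seeing the data. Scripts ran in Python 3.11.15 with scipy 1.17.1, pandas 2.3.3, matplotlib 3.10.9 and numpy 2.4.6.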

Additional observations from a re-analysis of the deposited data

How the results depend on the processing

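No paired analysis was possible because mESCs and prospermatogonia gave 1 library each. Scaling decided the direction of most ratios. The members' median log2 ratio of -1.94 became 0.41 when libraries were scaled to the median ratio and 0.22 when they were scaled to total miRNA reads, as did that of Mir320 (0.41 and 0.22). Mir484 moved to 0.11 and -0.08, Mir702 to 1.78 and 1.59, Mir1981 to 1.68 and 1.495, and the other non-canonical miRNAs, with Mir1983 alone above the filter, to 0.85 with the median ratio. Mir877 stayed above 0 in the 4 alternatives run (0.18 to 2.54). Members at least 2-fold lower went from 2 of 3 to 0 under the median ratio (36.5% of all tested rows) and total miRNA reads (39.9%), and 1 was at least 4-fold lower (64.5%). Members at least 2-fold higher went from 0 to 1 under both scalings (22.2% and 20.2%). With all rows above 0 reads, which adds Mir702 and Mir1981, the members' median ratio was -0.52 and that of all 354 rows -1.70, against -2.52 for the 203 tested rows. In prospermatogonia the median member stood 2.32 above the median row on the log2 scale, 2 against rows with a miRNA name, 0.57 against rows of more than 3 reads and 1.18 against rows with a read in both libraries, the last chosen after seeing the data. In mESCs it stood at -0.58, and at -0.64, -0.98 and -1.73 in these settings. Rows at intron ends numbered 9 within 10 nt (4 members), 6 within 5 nt (3 members, without Mir702) and 14 within 20 nt (4 members). Shares of miRNA reads on the members kept within their intervals under the alternatives run. Depth limits Mir702, Mir1981 and Mir1224 most, with 0 to 4 reads in mESCs, and p-values were not possible. The cause of these shifts was not tested, beyond what each setting changes by construction.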
